A study of Mus musculus with 2 samples.

Results

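The genes described here are the ligands, receptors and binding proteins of the insulin-like growth factor (IGF) system. They were set by name as *Igf1*, *Igf2*, *Igf1r*, *Igf2r*, *Igfbp2*, *Igfbp3*, *Igfbp4*, *Igfbp5*, *Igfbp6* and *Igfbp7*, which are 10 of the 23951 gene symbols found in both libraries. RNA-seq was carried out on optic nerves of mice at postnatal day 12 (P12), with 1 control library (Tcf7l2 c/+; OLig1-cre) and 1 mutant library (Tcf7l2 c/c; OLig1-cre), designated *Tcf7l2*ΔHMG. The floxed exon of *Tcf7l2* encodes the DNA-binding HMG box, and *Olig1*-Cre removes it in the oligodendrocyte (OL) lineage, so both groups carry the Cre transgene and the control also carries a floxed allele. Other cells of the nerve, such as astrocytes, microglia, vessels and meninges, are not the aim of this Cre. The number of animals behind each library is not given in the sources used here.

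IGF1 and IGF2 are secreted growth factors that signal through the receptor tyrosine kinase IGF1R, whereas IGF2R, the cation-independent mannose 6-phosphate receptor, takes up IGF2 for breakdown in lysosomes. Binding proteins of the IGFBP family hold IGFs outside the cell and can either block their access to the receptor or extend their life. In the brain, IGF1 is known to promote OL survival and myelination, and *Igf2* is known for its expression in the meninges and choroid plexus.

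Each value is in FPKM (fragments normalized to transcript length and to the mapped fragments of the library), which allows levels to be compared between genes, and each comes with the confidence interval that Cufflinks gave it. Without replicates, variation between animals could not be measured, and no gene was tested. The intervals cover sampling within 1 library only. Their bounds placed the depth at 27624000 fragments for the control and 39938000 for the mutant, a ratio of 1.45, so that 3 fragments on 1 kb correspond to 0.109 and 0.0751 FPKM. The half-width of the intervals of the 10 genes ran from 0.626% to 8.84% of the midpoint. The FPKM itself lay outside its own interval for 6 of the 10 genes in each library, compared with 7.26% (control) and 8.64% (mutant) of all named rows above 0 FPKM, so the interval is only part of the error.

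Each of the 10 genes was measured at a higher FPKM in *Tcf7l2*ΔHMG nerves, as were 54.6% of the 14196 tested genes. When all rows of the libraries, unnamed ones included, were rescaled to the same sum, 4 of the 10 remained higher. That scale lowered the tested genes as a whole, to a median log2 ratio of mutant to control of −0.61. A gene counted as tested when it reached 1 FPKM in either library and both of its rows had the status OK. A fold change above 1.5, the cutoff of the study, was passed by *Igf2*, *Igfbp2*, *Igfbp3*, *Igfbp4* and *Igfbp6*, all higher in the mutant. These are 5 of 10, and 15.4% of tested genes passed in that direction. None of the 10 passed in the other direction, against 8.52% of tested genes. With all rows rescaled to the same sum, *Igfbp6* alone passed as higher, against 4.59% of tested genes, and *Igf1r* and *Igfbp7* passed as lower, against 52.6%. The median log2 ratio of mutant to control, computed after 0.1 FPKM was added to each value, was 0.56 over the 10 genes and 0.05 over all tested genes. For 7 of the 10, the mutant interval lay wholly above the control interval, which held for 30.0% of tested genes. The differences were unequal within the family, as the binding proteins held the highest and the lowest of the ratios and the receptors stayed close to 0 on the log2 scale.

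**Figure D1:**
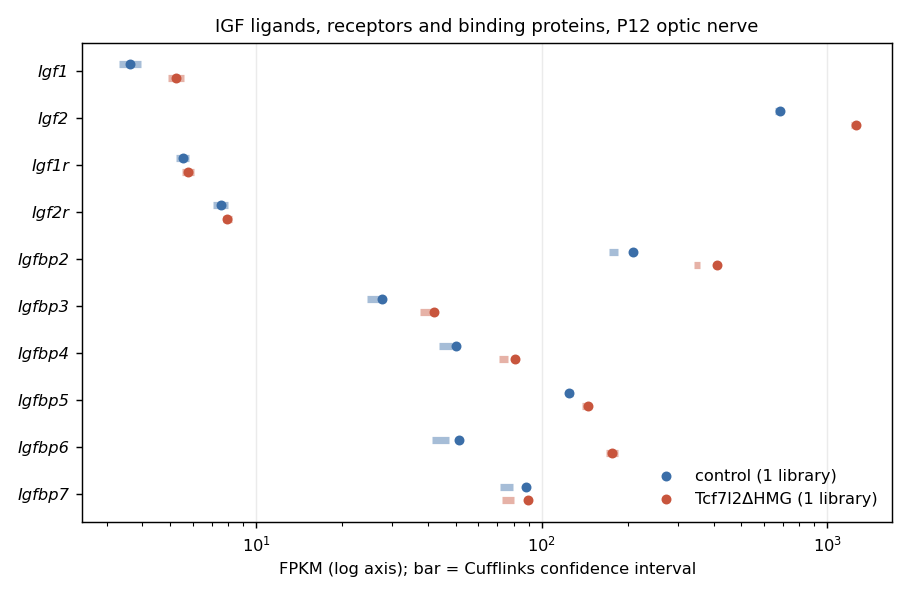
FPKM on a log axis of the 10 genes in the control library (blue) and the *Tcf7l2*ΔHMG library (red), with points for the FPKM and bars for the Cufflinks interval. *Igf2* stood highest in both libraries, at 686 and 1258 FPKM, and several points, such as those of *Igfbp2* and *Igfbp7*, lie above their own interval.

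Among the ligands, *Igf2* was by far the more abundant transcript. *Igf2*, on chromosome 7 from 149836673 to 149846940 (positions in mm9, the build in the submitters' processing notes, with starts counted from 1), had 686 FPKM in the control (interval 657 to 669.5) against 1258 in the mutant (1209 to 1224). The ratio of FPKM was 1.83 and the log2 ratio 0.88. The intervals were apart, and dividing opposite bounds gave folds from 1.81 to 1.86. In the control, 99.6% of tested genes had a lower FPKM than *Igf2*, and in the mutant 99.8%. *Igf1*, on chromosome 10 from 87321801 to 87399792, had 3.61 FPKM in the control (3.30 to 3.94) against 5.23 in the mutant (4.92 to 5.59). Its log2 ratio of 0.52 stayed below the cutoff, with non-overlapping intervals and folds from 1.25 to 1.69. *Igf2* thus made up 99.5% of the summed ligand FPKM in the control (99.6% in the mutant), and its level was 190 and 240.4 times that of *Igf1*.

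The receptors were expressed at a low level, and neither differed between the libraries beyond its interval. *Igf1r*, on chromosome 7 from 75097143 to 75378553 in the control table, encodes the signalling receptor and had 5.53 FPKM in the control (5.23 to 5.83) against 5.77 in the mutant (5.48 to 6.07). Its log2 ratio was 0.06 and its folds from opposite bounds ran from 0.941 to 1.16. *Igf2r*, on chromosome 17 from 12875272 to 12962572, had 7.51 FPKM in the control (7.09 to 7.95) against 7.94 in the mutant (7.64 to 8.23). With a log2 ratio of 0.08 and folds from 0.961 to 1.16, a difference of *Igf2r* was not detectable at this depth. Both ratios compare unlike rows. *Igf1r* had a row of the reference gene in the control and a row assembled by Cufflinks in the mutant. That pair had a median log2 ratio of 0.20 over 1876 tested genes. *Igf2r* had the reverse pair, with a median of −0.09 over 1464 tested genes. Each median was larger in size than the ratio of its receptor, so small differences cannot be judged here. The level of *Igf2r* was 1.36 times that of *Igf1r* in the control and 1.37 times in the mutant. *Airn*, the non-coding RNA whose row overlaps *Igf2r* and which is known to run antisense to it, had 4.27 FPKM in the control (2.93 to 5.61) against 2.65 in the mutant (2.14 to 3.17), and was chosen after its values were seen. Whether the counting used strand is not given in the sources used here, so reads of *Airn* and of *Igf2r* in the shared stretch may not have been told apart.

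Of the 6 binding proteins, 4 passed the cutoff, and *Igfbp6* had the highest ratio of the whole family. IGFBP6 is known for its preference for IGF2 over IGF1. *Igfbp6*, on chromosome 15 from 101974617 to 101979943, had 51.3 FPKM in the control (41.4 to 47.4) against 176 in the mutant (168 to 185). The FPKM differed 3.44-fold, a log2 ratio of 1.78, and 97.4% of tested genes had a lower log2 ratio. It was the only member past a fold change of 2, which 6.86% of tested genes passed as higher in the mutant. The control value came from a row of the reference gene, with an FPKM above its interval, and the mutant value from a row that Cufflinks had assembled. Of the 1876 tested genes with that pair of row kinds, 25.6% were higher in the mutant past the cutoff, with a median log2 ratio of 0.20, so *Igfbp6* has to be read against this higher share. The midpoints of the intervals gave a log2 ratio of 1.99. Folds from opposite bounds ran from 3.54 to 4.47, above the ratio of the FPKM.

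*Igfbp2* encodes the binding protein that is abundant in the developing brain and was the second most abundant transcript of the family in both libraries. *Igfbp2*, on chromosome 1 from 72871054 to 72899045, had 208 FPKM in the control (173 to 186) against 410.3 in the mutant (343 to 358). Its log2 ratio was 0.98, and its folds from opposite bounds ran from 1.85 to 2.07. The FPKM lay above the interval in both libraries, which were both read from the reference row, and the midpoints of the intervals gave a log2 ratio of 0.97.

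*Igfbp4* and *Igfbp3* were higher by less and stood close to the cutoff. *Igfbp4*, on chromosome 11 from 98902574 to 98913957, had 50.1 FPKM in the control (43.7 to 48.6) against 80.4 in the mutant (70.9 to 76.3), a log2 ratio of 0.68. IGFBP4 is known as an inhibitor of IGF action that the protease PAPP-A cleaves. *Igfbp3*, on chromosome 11 from 7106096 to 7113926, had 27.7 FPKM in the control (24.4 to 27.6) against 42.1 in the mutant (37.5 to 40.8), a log2 ratio of 0.60. IGFBP3 is the main carrier of IGFs in blood. The folds from opposite bounds ran from 1.46 to 1.75 for *Igfbp4* and from 1.36 to 1.68 for *Igfbp3*, so both ranges held the cutoff. The FPKM of *Igfbp3* differed 1.52-fold, and centring on the median of all tested genes brought its log2 ratio to 0.56, below the cutoff.

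*Igfbp5* and *Igfbp7* did not pass the cutoff. *Igfbp5*, on chromosome 1 from 72904639 to 72921439 and next to *Igfbp2*, had 125 FPKM in the control (124 to 129) against 145 in the mutant (138 to 143). The log2 ratio was 0.21 and the intervals were apart, with folds from 1.07 to 1.15, below the 1.16 given by the FPKM. Its control value came from an assembled row and its mutant value from the reference row, a pair for which the median log2 ratio was −0.09 over 1464 tested genes. *Igfbp7*, on chromosome 5 from 77778265 to 77837070, encodes a secreted protein of vessels that binds IGFs weakly, and had 88.5 FPKM in the control (71.4 to 79.6) against 89.5 in the mutant (72.6 to 80.3). With a log2 ratio of 0.02, overlapping intervals and folds from 0.912 to 1.13, a difference was not detectable. Its direction was not stable, since centring on the median of all tested genes gave −0.03.

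**Figure D2:**
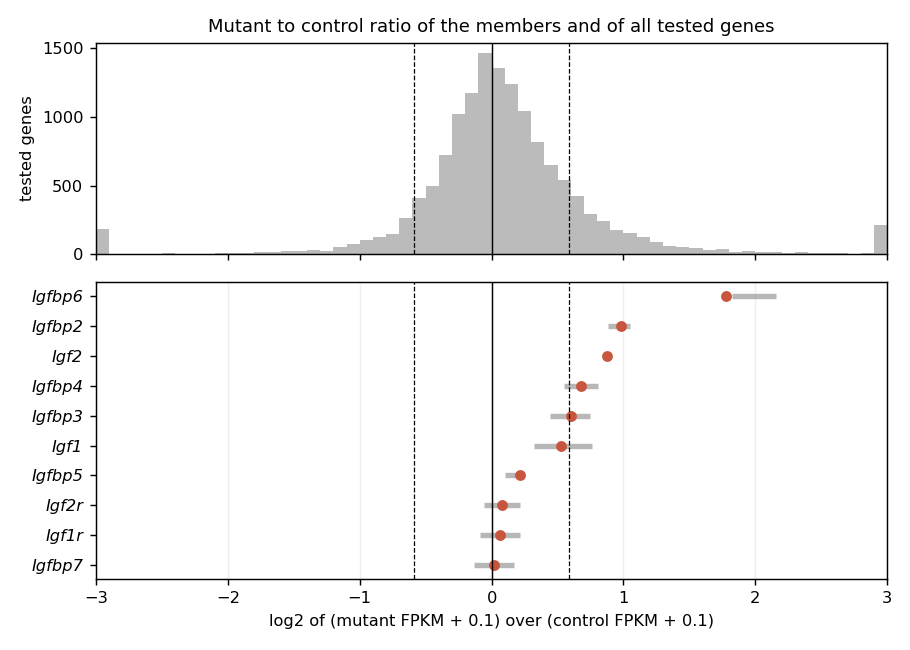
Top, number of tested genes by log2 ratio of mutant to control FPKM in bins of 0.1, with values past 3 in either direction placed in the end bins. Bottom, the log2 ratio of each of the 10 genes (red points) with the range from opposite bounds of the Cufflinks intervals (grey bars, no pseudocount) and the 1.5-fold cutoff (dashed lines). *Igfbp6* stood at 1.78, and the bars of *Igf1r*, *Igf2r* and *Igfbp7* crossed 0. The point of *Igfbp6* lies below its bar and that of *Igfbp5* above its bar, so the bars are not error ranges around the points. All points lie above 0 on this scale, and 4 of the 10 did so after all rows were rescaled to the same sum. The median of all tested genes was then −0.61.

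The order of the levels was read from the FPKM in each library. In the control it was *Igf2*, *Igfbp2*, *Igfbp5*, *Igfbp7*, *Igfbp6*, *Igfbp4*, *Igfbp3*, *Igf2r*, *Igf1r* and *Igf1*, and among neighbours in that order only *Igfbp6* and *Igfbp4* had overlapping intervals. In the mutant, *Igfbp6* stood between *Igfbp2* and *Igfbp5*, and the other 9 kept their order among themselves. There the intervals of *Igfbp7* and *Igfbp4* overlapped, and so did those of *Igf1r* and *Igf1*.

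Shares within the family do not depend on how the libraries are scaled to each other. The 6 binding proteins summed to 551 FPKM in the control against 943 in the mutant. *Igfbp6* made up 9.31% of this sum in the control but 18.7% in the mutant, and *Igfbp2* 37.8% and 43.5%. The shares of *Igfbp5* (22.7% and 15.3%) and *Igfbp7* (16.1% and 9.49%) were lower in the mutant, although their FPKM was not. *Igfbp4* held 9.10% and 8.52%, and *Igfbp3* 5.02% and 4.46%. The level of *Igf2* relative to the summed binding proteins was 1.25 in the control and 1.33 in the mutant.

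**Figure D3:**
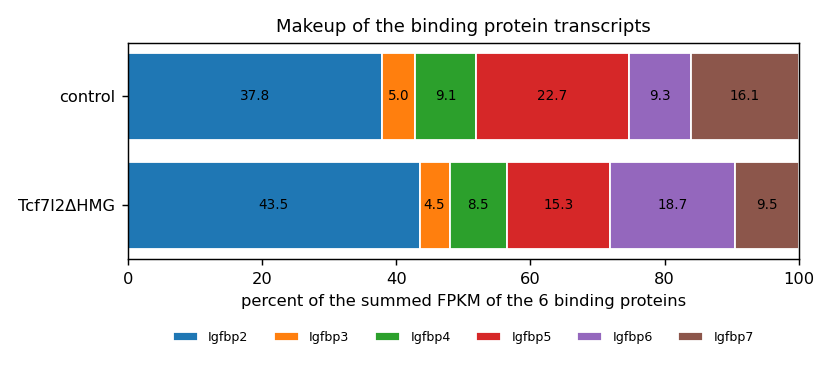
Percent of the summed FPKM of the 6 binding proteins held by each gene in the control library (top) and the *Tcf7l2*ΔHMG library (bottom). The share of *Igfbp6* was 9.31% in the control but 18.7% in the mutant, and those of *Igfbp5* and *Igfbp7* were smaller in the mutant.

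Tcf7l2 binds DNA through the core TCAAAG, so the promoter windows of the family were read for it. RefSeq (GRCm38.p6) gave 14 windows for the 10 genes, each from 250 bases before to 50 bases after a start. TCAAAG on either strand was found in 3 of the 14 windows, against 16.0% of all 32851 windows. The longer forms ATCAAAG, which contains the core, and TTCAAAG, which does too, were found in 0 and 1 of the 14, against 3.73% and 5.14% of all windows. The 3 stretches are printed 5′ to 3′ on the strand of the gene, with the core or its reverse complement CTTTGA in capitals, because they are the matches in the family. They lie at chr7:142667006-142667035 for *Igf2*, chr10:87860913-87860942 for *Igf1* and chr7:67952156-67952185 for *Igf1r*, in GRCm38.p6, and their cores begin 207, 186 and 89 bases before the start.
Igf2, first of 4 windows, minus strand: tatccccatttgTCAAAGtgtgtgacagtc
Igf1, plus strand: atgcgtggtggtCTTTGAaacatagctcag
Igf1r, plus strand: cggcgtgctcggCTTTGAccttcagcgagc
None of the 8 windows of the binding proteins and *Igf2r* held the core, which says only that these letters are not in them. The binding of Tcf7l2 at these genes was not analysed here. A match is a description of the letters and not a bound site, and *Igf1* and *Igf1r*, which have one, did not pass the cutoff.

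The *Igf2* locus also holds *Mir483*, a microRNA gene that lies within *Igf2* in RefSeq, and which was chosen after its values were seen. Its row had 199.96 FPKM in the control against 69.2 in the mutant, the opposite direction to *Igf2*. Both values lay far above their own intervals of 0 to 4.46 and 0 to 2.40, and the row is 73 bases long, so they are not backed by their intervals. The mature forms are printed from RefSeq with the seed (bases 2 to 8) in capitals to identify the row.
mmu-miR-483-5p: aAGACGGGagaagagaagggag
mmu-miR-483-3p: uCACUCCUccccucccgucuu
*H19*, the imprinted non-coding RNA near *Igf2*, had 95.7 FPKM in the control (86.5 to 185) against 158 in the mutant (145 to 218), a log2 ratio of 0.73 with overlapping intervals. Its row is merged with *Mir675* in both tables. *Igf2os*, antisense to *Igf2*, was listed at 0 in both libraries.

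The other genes of the pathway were taken from lists covering related receptors, proteases of the binding proteins, adaptors and the kinase arms. Of 66 genes listed, 55 were tested, 10 were higher in the mutant past the cutoff and 0 lower, and the median log2 ratio was 0.00. Over all tested genes 15.4% were higher past the cutoff, so the count of higher genes lay near that of the tables as a whole, and 8.52% were lower. *Insr*, the insulin receptor, had 8.26 FPKM in the control (7.81 to 8.72) against 5.71 in the mutant (5.41 to 6.03), a log2 ratio of −0.53 that did not reach the cutoff. The level of *Igf1r* relative to *Insr* was accordingly 0.669 in the control and 1.01 in the mutant. *Irs1*, the main docking protein of these receptors, had a log2 ratio of −0.44 (6.45 to 4.74 FPKM), and *Irs2* of −0.05 (6.72 to 6.49 FPKM).

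Of 13 tested receptor adaptors and negative regulators, 4 passed the cutoff and all 4 were higher in the mutant, where 15.4% of all tested genes passed as higher. *Grb14* and *Grb10* encode adaptors that dampen insulin and IGF receptors. *Grb14* had 20.3 FPKM in the control against 52.5 in the mutant (log2 ratio 1.37), and *Grb10*, an imprinted gene, 14.2 and 26.3 FPKM (log2 ratio 0.89). The intervals were apart for both. However, *Grb14*, like *Igfbp6*, has a reference row in the control and an assembled row in the mutant. Of tested genes with that pair of row kinds, 25.6% passed as higher. *Shc1*, an adaptor towards Ras, had a log2 ratio of 0.61 (22.3 to 34.1 FPKM) and *Socs1*, a cytokine signalling inhibitor, of 0.69 (1.35 to 2.24 FPKM, with overlapping intervals).

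In the kinase arms the genes past the cutoff were likewise all higher, at counts to be read against the same 15.4%. In the PI3K, Akt and mTOR arm, 2 of 21 tested genes passed, namely *Eif4ebp1*, the translation repressor downstream of mTOR (6.06 to 13.4 FPKM, log2 ratio 1.14), and *Foxo3*, a transcription factor that Akt restrains (9.40 to 14.5 FPKM, log2 ratio 0.62). In the MAPK arm, 1 of 10 passed, *Hras* (14.8 to 33.2 FPKM, log2 ratio 1.16). Of 5 tested genes for proteases that cut binding proteins and for their inhibitors, *Mmp2* passed (32.0 to 73.8 FPKM, log2 ratio 1.20). *Insrr*, the insulin receptor-related receptor, had 0.384 FPKM in the control against 1.53 in the mutant, a log2 ratio of 1.75 at a low level. Both *Hras* and *Insrr* pair a reference row in the control with an assembled row in the mutant, and are to be read against 25.6%. *Igfbp1* (0.11 and 0.038 FPKM) and *Igfals* (0.152 and 0.263 FPKM), which are mainly products of the liver, were not tested, as they were below 1 FPKM in both libraries. None of the 2 tested IGF2 mRNA-binding proteins passed.

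**Figure D4:**
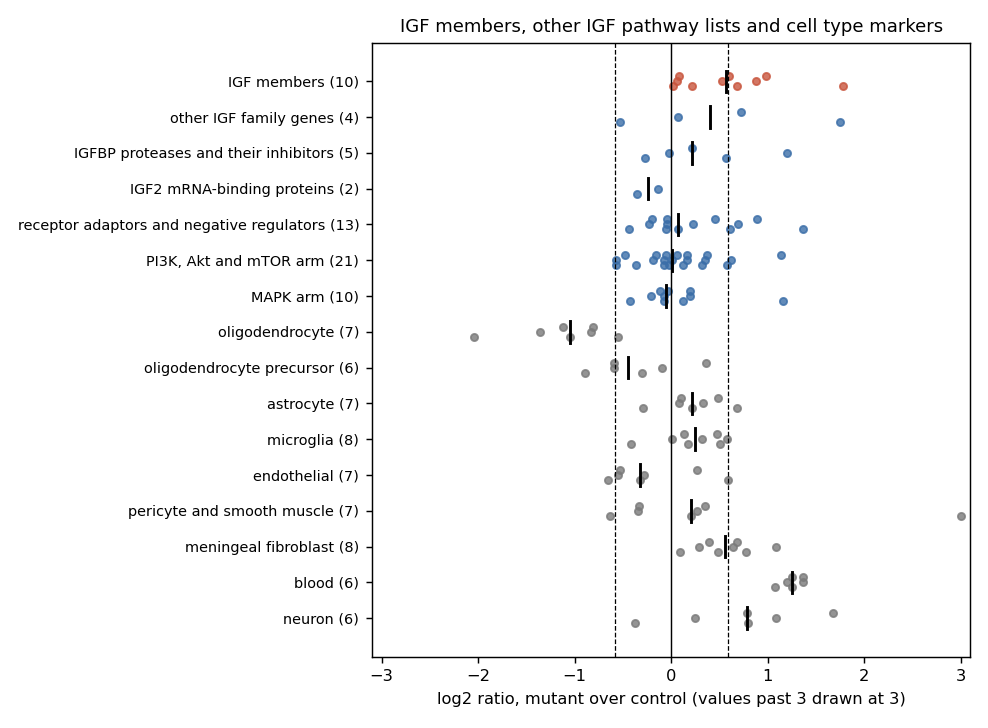
Log2 ratio of mutant to control FPKM of each tested gene in the IGF family (red), the other IGF pathway lists (blue) and cell type marker lists (grey), with the number tested in brackets, the median as a black bar and the 1.5-fold cutoff as dashed lines. The IGF family had a median of 0.56. Marker medians were 1.25 for blood, 0.79 for neuron, 0.56 for meningeal fibroblast, 0.24 for microglia, 0.22 for astrocyte and 0.21 for pericyte and smooth muscle. They were −0.32 for endothelial, −0.44 for oligodendrocyte precursor and −1.05 for oligodendrocyte markers. The precursor list also holds genes of premyelinating stages. The point at 3 is *Tagln*, listed at 0 in the control. After all rows were rescaled to the same sum the family median was −0.10 and that of all tested genes −0.61.

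The nerve is a mix of cells, and in bulk tissue more cells of a type and more RNA per cell cannot be told apart. Markers of glia were present, including *Mobp* and *Cnp* of OLs and *Gfap* of astrocytes. The genes named first for each marker list are the 2 with the highest mean FPKM over both libraries. Marker counts are to be read beside the shares of all tested genes. These were 54.6% higher by any amount, 15.4% higher past the cutoff and 8.52% lower past it. All 7 OL markers used here had a lower FPKM in the mutant, 6 of them past the cutoff, and their summed FPKM was 8596 in control and 3731 in mutant nerves. The list named OL precursor holds genes of premyelinating stages as well, so it does not measure precursors alone. Of its 6 markers, led by *Bcas1* and *Gpr17*, 3 were lower past the cutoff. These were *Bcas1*, *Gpr17* and *Enpp6*, which are genes of premyelinating stages. *Pdgfra* (log2 ratio −0.09, with overlapping intervals) and *Cspg4* (−0.30) did not pass, and *Ptprz1* had a higher FPKM in the mutant (0.36). All 8 meningeal fibroblast markers had a higher FPKM in the mutant, 4 past the cutoff, with log2 ratios of 0.09 to 1.09 and a summed FPKM of 1219.5 in control and 1655 in mutant nerves. By that mean *Col1a2* and *Col1a1* were the most abundant, with log2 ratios of 0.39 and 0.49, while *Col3a1*, which had a higher FPKM than *Col1a1* in the control, had the lowest ratio of the list, 0.09. Marker ratios are on the scale as reported. Rescaling all rows to the same sum has a log2 factor of −0.67 on the mutant, so smaller ratios, such as those of these collagens, would fall below 0. Blood markers, led by *Hba-a1* and *Hba-a2*, were higher past the cutoff for 6 of 6 symbols, but *Hba-a1* and *Hba-a2* share a row and so do *Hbb-b1* and *Hbb-bs*. With each row counted once, their summed FPKM was 163 in control and 403 in mutant nerves. Neuron markers, led by *Tubb3* and *Nefl*, were higher past the cutoff for 4 of 6 (summed FPKM 38.8 and 57.1).

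Markers of the other cell types were counted in the same way. Of 7 astrocyte markers, led by *Gfap* and *Gja1*, 1 was higher past the cutoff, and of 8 microglia markers, led by *C1qb* and *C1qa*, 0 passed, with summed FPKM of 242 and 319. Among 7 endothelial markers, led by *Cldn5* and *Cdh5*, 1 was higher and 1 lower past the cutoff, and among 7 pericyte and smooth muscle markers, led by *Rgs5* and *Pdgfrb*, the counts were also 1 and 1. The higher one was *Tagln*, listed at 0 FPKM in the control but at 35.3 in the mutant, and no other marker was at 0. The control row of *Tagln* was of the reference gene and its mutant row was assembled. The part of any of these cell types in the values of *Igf2*, *Igfbp2*, *Igfbp6* or the other members was not tested.

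*Tcf7l2* itself had 17.8 FPKM in the control (16.7 to 18.9) against 14.6 in the mutant (13.9 to 15.4), a log2 ratio of −0.28. The deletion takes out a single exon in some of the cells, so the FPKM of the whole gene does not check the genotype. Unnamed rows took 70.7% of all FPKM of the control library (mutant 80.7%), and the common sum of all rows moved every ratio most, and the median of all tested genes by −0.66.

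**Figure D5:**
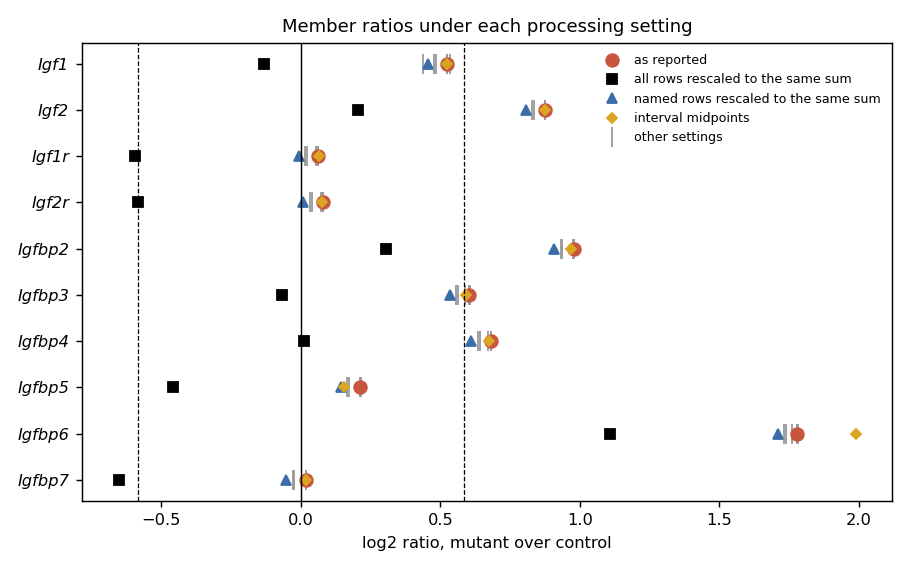
Log2 ratio of mutant to control for each of the 10 genes as reported (red circles), with all rows rescaled to the same sum (black squares), with named rows rescaled (blue triangles), from interval midpoints (yellow diamonds) and under the other settings (grey ticks). *Igfbp6* stayed between 1.11 and 1.99 and *Igf2* between 0.20 and 0.88, whereas *Igf1*, *Igf1r*, *Igf2r*, *Igfbp3*, *Igfbp5* and *Igfbp7* were below 0 after all rows were rescaled. The median of all tested genes was then −0.61.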

How the data were processed

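RNA from optic nerves of control and *Tcf7l2*ΔHMG mice at P12 was sequenced on an Illumina instrument (1 library per genotype). The authors mapped reads with TopHat at default settings. The deposited tables hold FPKM from Cufflinks, with interval bounds and a status for each row. The build in the submitters' processing notes is mm9. Tool versions are not given in the sources used here. Positions of promoter windows and miRNAs are in GRCm38.p6 and were not joined to those of the tables.

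Comma-merged names were split, rows were summed per symbol, and symbols in both libraries were joined. Of the 14196 tested symbols, 1079 shared a row with another symbol in at least 1 library. Log2 ratios used a pseudocount of 0.1 FPKM, which understates the change of low genes. Depth was taken as the smallest at which interval bounds of unnamed rows under 100 bases were whole fragments, within 0.01 for 95% of bounds. The joining and calling steps were checked on simulated data made from the named control rows. Both simulated libraries had the same row kinds and scale, so the check does not cover those limits of the real tables.

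The genes named were all 10 members, *Tcf7l2*, every tested gene of the other IGF lists past the cutoff, *Insr*, *Irs1*, *Irs2*, *Igfbp1*, *Igfals* and *H19*, and the 2 most abundant genes of each marker list, by mean FPKM over both libraries, from which 1 gene is not reported here. *Airn*, *Mir483*, *Mir675*, *Igf2os*, *Tagln*, *Col3a1*, *Hbb-b1*, *Hbb-bs*, *Enpp6*, *Pdgfra*, *Cspg4* and *Ptprz1* were named outside this rule, after their values were seen. No gene was named for likeness of pattern, since 2 libraries define none. The members and lists were chosen with earlier results of these data known. Python 3.11.15, numpy 2.4.6, pandas 2.3.3 and matplotlib 3.10.9 were used.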

Additional observations from a re-analysis of the deposited data

Results flagged for a closer look

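Unnamed rows in or within 2000 bases of a member were looked at because they lie outside the gene values, and those present in the mutant with no overlapping unnamed row in the control are listed. Upstream of *Igfbp6*, on chromosome 15, the mutant had 0.857 FPKM from 101972478 to 101972973 and 4.21 FPKM from 101973128 to 101973378, the latter above its interval of 0.499 to 2.39. Within *Igf2r*, on chromosome 17, it had 2.22 FPKM from 12880836 to 12881149, 1.23 FPKM from 12949624 to 12950091, 1.32 FPKM from 12955939 to 12956370 and 1.89 FPKM from 12958046 to 12958380. Conversely, 5 unnamed rows within *Igf1r* were in the control and not in the mutant, with a summed FPKM of 9.16. *Igf1r*, *Igf2r* and *Igfbp6* are 3 of the 4 members whose rows were assembled in 1 library and taken from the reference in the other. The part of assembly or depth in these rows was not tested.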

How the results depend on the processing

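Over the settings that score each gene, 106 of 126 member values moved by no more than the half-width of the range from opposite interval bounds. A further 10 moved by more and 10 changed sign. Filters on low values, the highest row per symbol, rows of any status and the same kind of row cannot change a member's value. Those settings are counted among the 106, so this count does not measure stability. The all-row sum had the largest effect, moving the median of all tested genes by −0.66 and that of the members from 0.56 to −0.10, 0.51 above the median of all genes there and 0.52 above it as reported. It left 1 member higher and 2 lower past the cutoff (as reported 5 and 0), and gave −0.13 for *Igf1*, −0.60 for *Igf1r*, −0.58 for *Igf2r*, −0.067 for *Igfbp3*, −0.46 for *Igfbp5* and −0.65 for *Igfbp7*. Over all tested genes, higher calls were then 8.03% of calls, against 64.3% as reported, with 652 higher and 7463 lower genes (2184 and 1210 as reported). Named rows alone gave −0.0081 for *Igf1r* and −0.053 for *Igfbp7*, the 75th percentile −0.024 for *Igfbp7*, and centring on the median −0.030. A fold change above 2 left 1 member, and 974 genes higher and 521 lower. Without a filter on low values 3205 genes were higher, and with an FPKM of at least 5, 1287. Interval midpoints and a restriction to genes with the same kind of row in both libraries were chosen after seeing the data. Among the 6 members restricted to the same kind of row, 4 passed the cutoff as higher and 0 as lower. Of the 10856 genes tested under that restriction, 14.7% passed as higher and 8.64% as lower. With 1 library per genotype no replicate could be left out. No paired analysis was possible because each group had 1 library. The shallower control library limits the precision of low genes such as *Igf1*.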
